A study of Mus musculus with 2 samples.

Results

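The Slc22 and Slco genes encode 2 families of membrane transporters that carry organic ions, and their mRNA levels were described in the liver of iFIRKO and control mice. The members were selected by gene symbol, as every row whose symbol begins with Slc22a or Slco followed by a digit, with pseudogene symbols ending in -ps left out. This gave 40 genes of 53241 distinct symbols, 25 in Slc22 and 15 in Slco. The families were picked on values of these same libraries, with the iFIRKO and control levels already known, so every value of that contrast is given as a description and none is tested. The study compared 1 liver library of iFIRKO mice, which lose the insulin receptor in adipocytes once tamoxifen is given (Adipoq-CreERT2 with *Insr* flox/flox), with 1 library of control mice, which the labels call WT and the methods call IR flox/flox. All mice were male, were 7 weeks old and received tamoxifen intraperitoneally at 100 mg/kg on 5 days, and the liver was taken 3 days after the final dose. The Cre recombinase is driven by the adiponectin promoter, so the insulin receptor was deleted in adipocytes, while the tissue measured here is the liver, and the sources name no Cre for the control mice. Whether a library was made from 1 mouse or from several is not given in the sources used here. With 1 library for each genotype no difference has a replicate check, and no p-value was computed.

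Hepatocytes take up bile acids, conjugated hormones, bilirubin, carnitine, vitamins and many drugs from blood through transporters of the sinusoidal membrane. Slc22 proteins are grouped by substrate into organic cation, carnitine and zwitterion, and organic anion transporters. Slco proteins, also known as organic anion transporting polypeptides, carry larger amphipathic anions such as bile acids, steroid conjugates, prostaglandins and thyroid hormones. Several members of both families lie side by side as tandem copies, and rodents carry copies that have no direct human counterpart.

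The level of a gene is given in normalized reads, the deposited read count after scaling of each library and return from the log2 scale. A gene was tested, here meaning only that a fold change was calculated, where it had at least 41.8 normalized reads (a CPM of 1, where CPM is the level relative to the library total) in 1 or both libraries. The log2 fold change (log2FC) was that of iFIRKO over control after adding a pseudocount of 4.18 normalized reads, and a gene was called higher or lower past a fold of 1.5, a log2 value of 0.58. Intervals are 95% exact Clopper-Pearson intervals from estimated read pairs, and they cover counting error between these 2 libraries only. The libraries held an estimated 42275543 and 41306732 reads. As a check of the tissue, *Alb*, the albumin gene, had 4167154 normalized reads in control against 3944155 in iFIRKO, while 6 of 9 kidney markers were listed at 0 in both libraries.

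Of the 40 members, 20 reached the minimum, 14 of Slc22 and 6 of Slco. Among these 20, 1 was called higher in iFIRKO (5.0%, against 4.46% of all 13390 genes tested) and 3 were called lower (15.0%, against 7.29%). The first share was near the background and the other rested on 3 genes. Calls are rarer among abundant genes, and of the 16 members at a CPM of 10 or more 0 were called higher and 18.75% lower, against 2.42% and 3.55% of the 8373 genes at that level. The median log2FC of the 20 was 0.10, with 11 above 0 and 9 below, against 0.0075 over all genes tested. The median size of the change, sign aside, was 0.34 in the members and 0.18 over all genes tested. For 15 of the 20 members the counting interval lay wholly on 1 side of 0, above it for 9 and below it for 6. The same share over all genes tested was not computed. Intervals are narrow for abundant genes even where the difference is small, so this count is no measure of change in the families. The called members were *Slc22a29*, which was higher, and *Slc22a26*, *Slco1a4* and *Slco2a1*, which were lower.

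**Figure D1:**
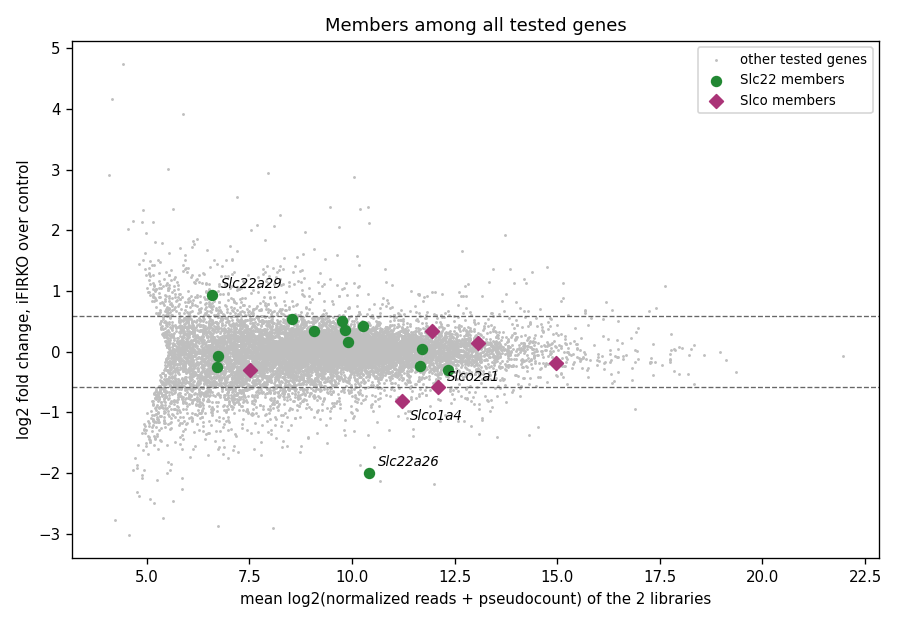
Log2 fold change of iFIRKO over control (vertical axis) against the mean level of the 2 libraries, as log2 of normalized reads plus the pseudocount (horizontal axis), for 13389 of the genes tested. Grey points are other genes, green circles 13 Slc22 members and purple diamonds the 6 Slco members, and dashed lines mark a fold of 1.5. *Slc22a26* lies lowest of the members at -1.99 and most members lie between the lines.

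The other 20 members were below the minimum. Of these, 12 were listed at 0 in both libraries, among them *Slc22a6*, the kidney organic anion transporter Oat1, *Slc22a12*, the kidney urate transporter, and the 3 Slco6 genes. *Slc22a17*, which encodes a receptor for lipocalin-2, came nearest to the minimum with 38.1 normalized reads in control against 40.2 in iFIRKO. *Slc22a2*, the kidney cation transporter Oct2, had 14.9 and 16.1, and *Slco4a1*, a thyroid hormone transporter, had 12.7 and 10.9. *Slco1c1*, the thyroxine transporter of the blood-brain barrier, had 7.95 and 4.03. The remaining 4 stood at 1 or 2 estimated read pairs or less, and are given no fold change. *Slco1a5* had 1.99 and 1.01, while *Slc22a8*, *Slc22a13* and *Slc22a22* were listed at 0 in control and had 2.01, 2.62 and 4.03 in iFIRKO, below the 6.04 normalized reads that 3 read pairs are worth there.

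Levels spanned a wide range. Per kilobase of annotated exon, which allows levels to be compared between genes, *Slco1b2* was the most abundant member in both libraries, with 10288 normalized reads per kilobase in control against 9051 in iFIRKO. *Slc22a18* had 1958 and 2028, and *Slco2b1* had 1548 and 1709. At the other end, *Slco3a1* had 27.4 and 22.1 normalized reads per kilobase. *Slc22a26* held rank 6 of the 20 tested members in control, with 927 normalized reads per kilobase, and rank 14 in iFIRKO, with 232. *Slco1a4* moved from rank 8 to rank 12. The order per kilobase depends on the exon length taken from the annotation, and with the longest transcript in place of merged exons *Slc22a30* stood at rank 3 and *Slc22a18* at rank 4 in control.

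**Figure D2:**
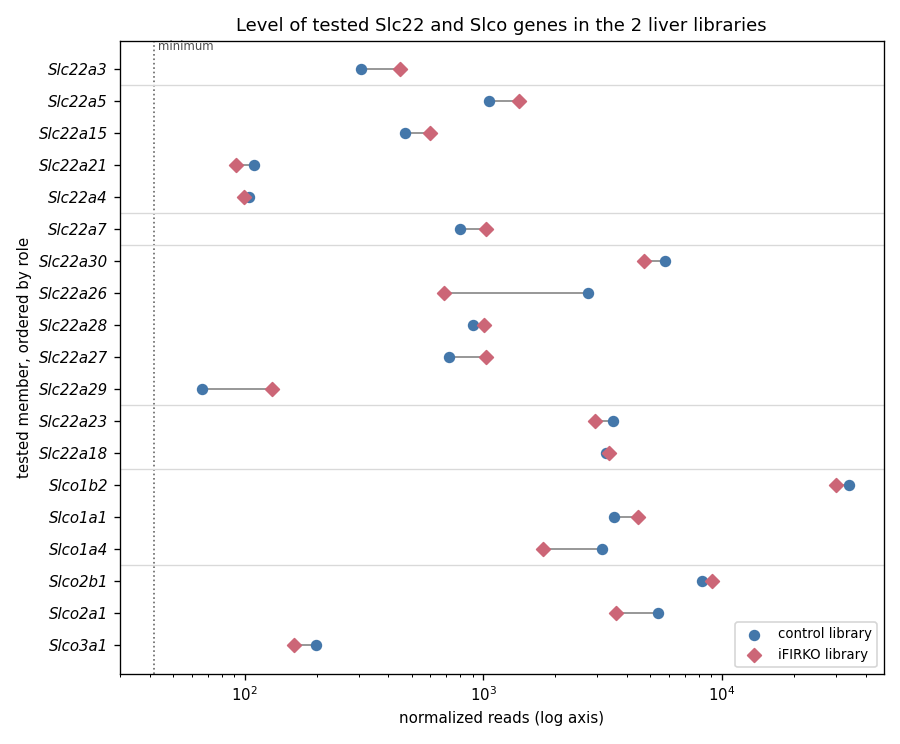
Normalized reads (horizontal log axis) of 19 tested members in the control library (blue circles) and the iFIRKO library (red diamonds), 1 library each, with members ordered by role and the dotted line at the minimum of 41.8. The widest gaps are those of *Slc22a26*, *Slc22a29*, *Slco1a4* and *Slco2a1*.

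The largest difference lay in the rodent-expanded organic anion transporter array of chromosome 19, where *Slc22a19*, *Slc22a26*, *Slc22a27*, *Slc22a28*, *Slc22a29* and *Slc22a30* follow each other. The sequences just upstream of these genes are shown because they tell the copies apart and show which of them are near duplicates. Each is the RefSeq window from 250 bases before to 50 bases after 1 start of a gene on GRCm38.p6, on the reverse strand of the chromosome and written 5′ to 3′. The RefSeq genes *Slc22a27* and *Slc22a29* reach further upstream, to 7966517 and 8253375, so other starts of these 2 would give other windows. Capitals mark GTTAAC or GTTAAT on either strand, letters found in the binding element of HNF1, a hepatocyte transcription factor. The windows are, in the order printed, chr19:7711261-7711560, chr19:7802618-7802917, chr19:7965978-7966277, chr19:8131933-8132232, chr19:8218851-8219150 and chr19:8405056-8405355.
Slc22a19: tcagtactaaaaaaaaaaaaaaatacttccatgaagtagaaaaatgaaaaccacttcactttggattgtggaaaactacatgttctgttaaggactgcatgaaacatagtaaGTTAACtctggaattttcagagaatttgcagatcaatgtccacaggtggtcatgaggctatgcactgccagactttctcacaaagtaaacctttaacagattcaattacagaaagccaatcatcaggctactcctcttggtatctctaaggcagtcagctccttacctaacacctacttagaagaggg
Slc22a26: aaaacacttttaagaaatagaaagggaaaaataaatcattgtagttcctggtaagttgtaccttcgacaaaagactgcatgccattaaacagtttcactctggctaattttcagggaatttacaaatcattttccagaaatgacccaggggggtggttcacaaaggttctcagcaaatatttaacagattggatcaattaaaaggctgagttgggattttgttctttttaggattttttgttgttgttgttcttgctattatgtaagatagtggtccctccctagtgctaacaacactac
Slc22a27: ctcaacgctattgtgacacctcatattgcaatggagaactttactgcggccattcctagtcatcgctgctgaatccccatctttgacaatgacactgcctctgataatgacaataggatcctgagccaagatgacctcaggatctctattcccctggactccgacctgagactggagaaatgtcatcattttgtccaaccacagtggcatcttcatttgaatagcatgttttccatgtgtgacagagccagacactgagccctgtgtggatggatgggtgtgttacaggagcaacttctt
Slc22a28: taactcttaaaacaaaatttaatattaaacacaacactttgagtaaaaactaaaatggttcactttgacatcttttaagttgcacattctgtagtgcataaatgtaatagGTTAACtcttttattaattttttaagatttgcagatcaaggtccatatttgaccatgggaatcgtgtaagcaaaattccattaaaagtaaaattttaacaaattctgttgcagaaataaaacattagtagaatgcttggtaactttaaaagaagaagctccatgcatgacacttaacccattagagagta
Slc22a29: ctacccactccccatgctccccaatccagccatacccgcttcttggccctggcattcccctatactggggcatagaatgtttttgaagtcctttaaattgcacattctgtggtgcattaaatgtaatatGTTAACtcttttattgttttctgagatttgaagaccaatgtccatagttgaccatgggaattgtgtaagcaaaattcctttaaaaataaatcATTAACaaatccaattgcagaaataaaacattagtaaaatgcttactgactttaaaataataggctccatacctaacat
Slc22a30: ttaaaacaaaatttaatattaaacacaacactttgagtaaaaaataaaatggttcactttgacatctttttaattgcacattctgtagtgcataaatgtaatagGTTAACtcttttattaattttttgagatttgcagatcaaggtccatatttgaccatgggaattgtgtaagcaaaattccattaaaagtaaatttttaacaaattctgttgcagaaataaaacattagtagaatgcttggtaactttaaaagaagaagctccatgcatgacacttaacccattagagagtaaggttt

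The windows of *Slc22a28* and *Slc22a30* were near copies of each other, with 288 of 294 aligned bases identical (98.0%) and a longest identical run of 98 bases. The window of *Slc22a29* matched that of *Slc22a28* at 185 of 217 aligned bases (85.3%) and that of *Slc22a30* at 188 of 217 (86.6%). The window of *Slc22a19* was a more distant relative, with 157 of 241 aligned bases identical to *Slc22a28* (65.1%) and 161 of 240 to *Slc22a30* (67.1%). The window of *Slc22a26* matched that of *Slc22a19* at 90 of 134 aligned bases (67.2%) and that of *Slc22a30* at 57 of 85 (67.1%). With *Slc22a28* and *Slc22a29* it matched at 23 of 33 and 23 of 31. Because *Slc22a28* and *Slc22a30* are near copies here, these short local alignments do not rank how closely they are related to *Slc22a26*. The window of *Slc22a27* aligned over at most 22 bases with any other. The windows of *Slc22a26* and *Slc22a27* shared a longest identical run of 8 bases with each other and of 14 bases at most with any of the other 4. The letters GTTAAC stood 140 bases before the start in *Slc22a28*, 146 in *Slc22a30*, 121 in *Slc22a29* and 138 in *Slc22a19*, and *Slc22a29* held a further match, ATTAAC, 29 bases before its start. These windows are related copies, so their matches are not independent, and *Slc22a19*, which holds the same letters, was listed at 0 in both libraries.

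The transcripts of the array differed in how far they could be told apart by sequence. Of the 75-base words in annotated *Slc22a28* transcripts, 44.2% also occur in *Slc22a30*, and 25.3% of those of *Slc22a30* occur in *Slc22a28*. For *Slc22a27* 13.2% were shared with *Slc22a29*, and for *Slc22a29* 11.8% with *Slc22a27*. *Slc22a26* shared 2.75% of its words, with the annotated gene AC115715.1 only, and none with another member. How the counting treated reads that match several genes is not given in the sources used here, so the separate values of *Slc22a27* to *Slc22a30* are uncertain, *Slc22a28* the most.

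*Slc22a26* (ENSMUSG00000053303.14, chromosome 19 of GRCm38, 7781041 to 7802667, reverse strand, 10 exons) encodes an organic anion transporter-like protein. It had 2734 normalized reads in control against 684 in iFIRKO, that is 1376 and 340 estimated read pairs. The iFIRKO level was 3.98-fold lower, a log2FC of -1.99 (interval -2.17 to -1.83), and 0.134% of all genes tested had a lower value. No other member came near this difference. *Slc22a29* (chromosome 19, 8160165 to 8218900, 10 exons) went the other way, with 65.9 normalized reads in control against 130 in iFIRKO, a log2FC of 0.94 (interval 0.37 to 1.65). It was the least abundant tested member of the array, and its 33 and 65 read pairs make this the widest interval among the called members. *Slc22a27* had 720 and 1020 normalized reads, a log2FC of 0.50 (interval 0.31 to 0.70). *Slc22a28* had 901 and 1004, and its log2FC of 0.15 had an interval from -0.03 to 0.34 that spans 0. *Slc22a30*, the most abundant copy, had 5777 and 4701, a log2FC of -0.30 (interval -0.38 to -0.22).

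The copies differed in direction, with log2FCs from -1.99 to 0.94, and *Slc22a28* and *Slc22a30*, whose upstream windows are nearly identical, had values of 0.15 and -0.30. Summed over the 6 genes, the array had 10198 normalized reads in control against 7540 in iFIRKO, a log2 ratio of -0.44 (interval -0.50 to -0.37). The sum leaves the assignment of reads among copies aside only if each read was counted once. Reads that were dropped, or counted for several copies, would alter it too. Without *Slc22a26* the sums were 7463 and 6855, a log2 ratio of -0.12 (interval -0.19 to -0.06). *Slc22a26* made up 26.8% of the array's reads in control against 9.08% in iFIRKO, while *Slc22a30* made up 56.6% and 62.4%.

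**Figure D3:**
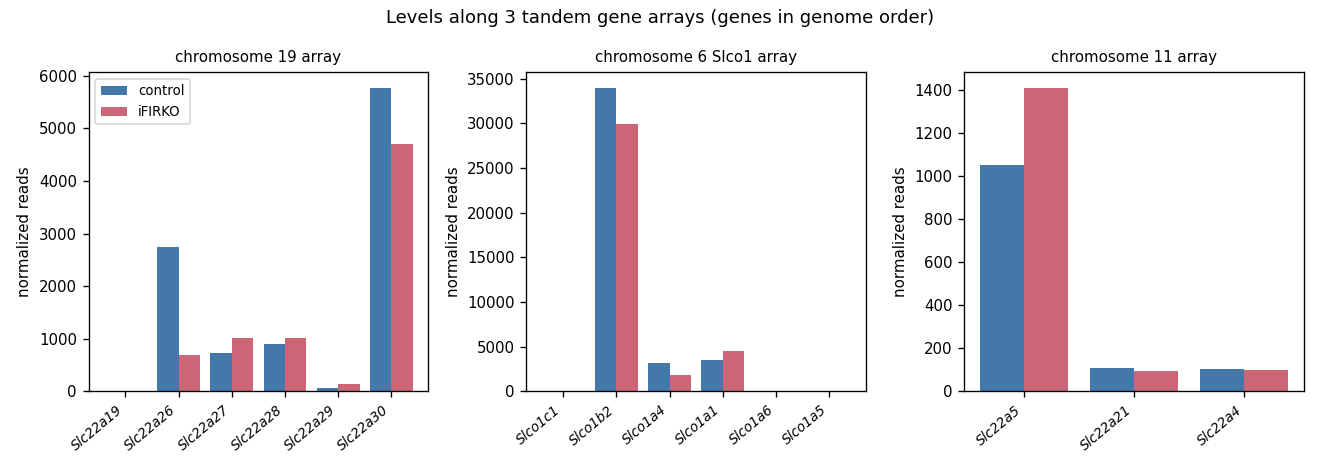
Normalized reads (vertical axes, each starting at 0) of the genes of 3 tandem arrays in genome order, with the control library in blue and the iFIRKO library in red, 1 library each. On chromosome 19 the bar of *Slc22a26* falls from 2734 to 684 while the iFIRKO bars of *Slc22a27*, *Slc22a28* and *Slc22a29* stand above those of control, and on chromosome 6 *Slco1a4* has 3148 and 1783 and *Slco1a1* 3521 and 4461.

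The Slco1 array of chromosome 6 includes hepatocyte transporters for bile acids and conjugated steroids. *Slco1b2* (chromosome 6, 141629518 to 141686646, forward strand), which takes up bile acids, conjugated bilirubin and drugs, had 34022 normalized reads in control against 29931 in iFIRKO. Its log2FC was -0.18 (interval -0.22 to -0.15), below 0 but short of the 1.5-fold limit. *Slco1a4* (ENSMUSG00000030237.14, chromosome 6, 141805440 to 141856199, reverse strand, 17 exons), a transporter of bile acids, steroid conjugates and cardiac glycosides such as digoxin, had 3148 normalized reads in control against 1783 in iFIRKO. Its level was 1.76-fold lower, a log2FC of -0.82 (interval -0.94 to -0.70). *Slco1a1* (141907282 to 141946962, reverse strand), the next gene of the family on the chromosome, had 3521 and 4461, a log2FC of 0.34 (interval 0.25 to 0.43).

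*Slco1a1* and *Slco1a4* thus lay at similar levels in control and apart in iFIRKO. Per kilobase the level of *Slco1a1* was 1.05 times that of *Slco1a4* in control and 2.36 times in iFIRKO. In mouse liver *Slco1a1* is known as a male-predominant gene and *Slco1a4* as a female-predominant one, and both libraries are labelled male. The transcripts of each shared under 2% of their 75-base words with other genes, 1.08% for *Slco1a1* and 1.03% for *Slco1a4*. Between them lies *Gm30784*, a noncoding RNA gene on the RefSeq annotation, which is no member and was chosen after its values were seen. It had 165 and 91.5 normalized reads, a log2FC of -0.82 with a wide interval (-1.42 to -0.32), and a link with its neighbour *Slco1a4* was not tested. The sum over the array was 40700 normalized reads in control against 36180 in iFIRKO, a log2 ratio of -0.17 (interval -0.20 to -0.14).

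**Figure D4:**
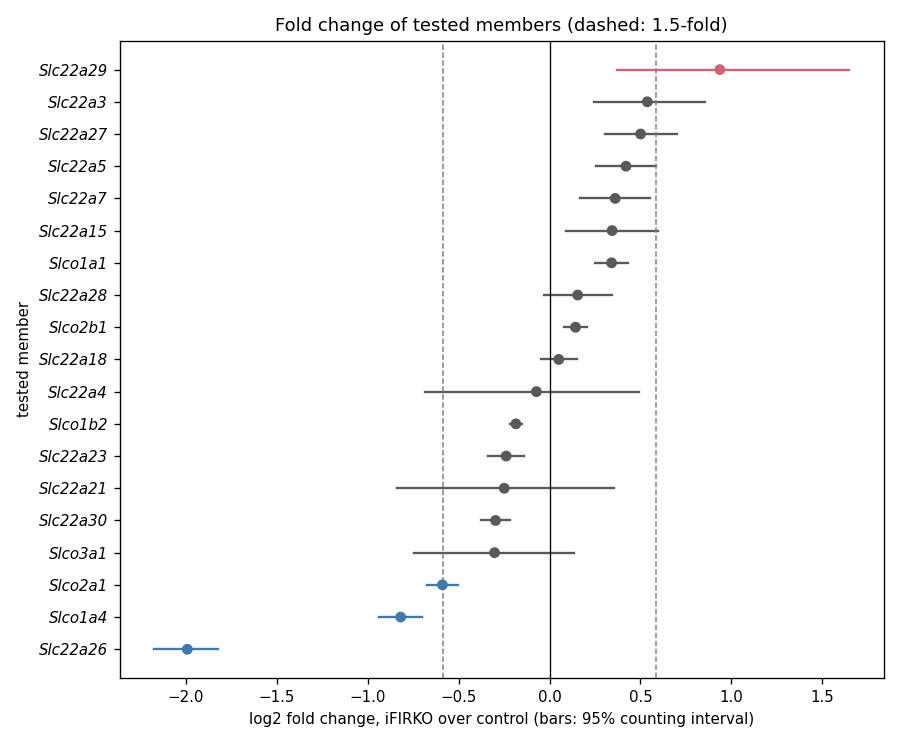
Log2 fold change of iFIRKO over control (horizontal axis) of 19 tested members, sorted by value, with bars for the 95% counting interval and dashed lines at a fold of 1.5. Red marks the member called higher (*Slc22a29*), blue those called lower (*Slc22a26*, *Slco1a4*, *Slco2a1*) and grey the 15 others.

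Outside this array, *Slco2a1* (ENSMUSG00000032548.14, chromosome 9, 102988712 to 103096002, forward strand, 14 exons), the prostaglandin transporter, had 5405 normalized reads in control against 3592 in iFIRKO. It was 1.504-fold lower, a log2FC of -0.59 (interval -0.68 to -0.50), which includes the limit, so its call sits at the limit itself. With a pseudocount of a CPM of 1 its value was -0.58 and the call was lost. The 6 endothelial markers were *Pecam1*, *Cdh5*, *Stab2*, *Lyve1*, *Kdr* and *Clec4g*, none of them at 0. Their sum was 9174 normalized reads in control against 6668 in iFIRKO, a log2 ratio of -0.46. Of the 6, 2 were called lower (*Pecam1* and *Kdr*), against 7.29% of all genes tested. The part of these markers in the value of *Slco2a1* was not tested. In bulk tissue, fewer cells of a type and less RNA per cell cannot be told apart.

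*Slco2b1*, a transporter of sulfated steroids, had 8213 and 9069 normalized reads, a log2FC of 0.14 (interval 0.08 to 0.20). Exons of this gene overlap those of 2 antisense genes, *Gm15635* and *Gm34280*, by up to 359 bases, but these had at most 8.05 normalized reads in either library. *Slco3a1*, a broadly expressed anion transporter, had 200 and 161 normalized reads, and at this depth no difference could be read from its log2FC of -0.30 (interval -0.75 to 0.14). The Slco family as a whole had 54530 normalized reads in control against 49012 in iFIRKO, a log2 ratio of -0.15 (interval -0.18 to -0.13). Of its reads, *Slco1b2* made up 62.4% in control against 61.1% in iFIRKO. The share of *Slco2b1* was 15.1% and 18.5%, that of *Slco2a1* 9.91% and 7.33%, that of *Slco1a1* 6.46% and 9.10%, and that of *Slco1a4* 5.77% and 3.64%.

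**Figure D5:**
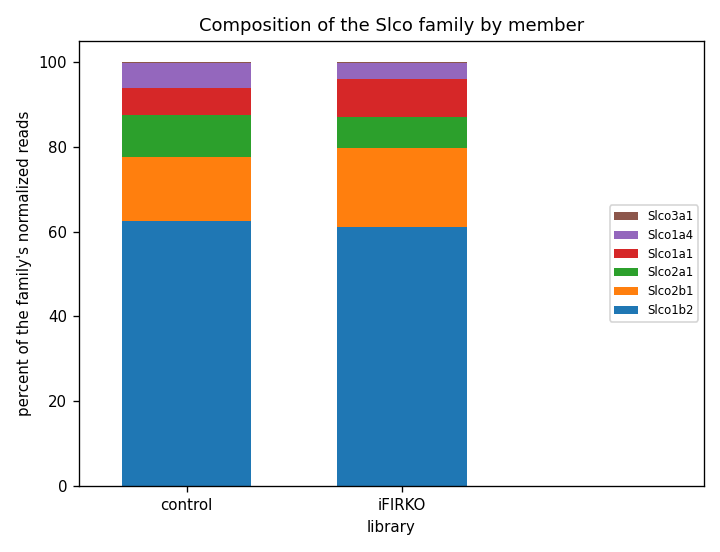
Share of the Slco family's normalized reads (vertical axis, percent) taken by its 6 tested members in the control and iFIRKO libraries, 1 library each. *Slco1b2* takes the most in both, 62.4% and 61.1%, and *Slco1a4* goes from 5.77% to 3.64%.

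Among the organic cation transporters, *Slc22a3* (chromosome 17, 12418960 to 12507704, reverse strand), the monoamine transporter Oct3, had 306 and 447, a log2FC of 0.54 (interval 0.24 to 0.85), the value nearest to the 1.5-fold limit among the members described here that were not called. None of its 75-base words occurs in another gene.

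Among the carnitine and zwitterion transporters, *Slc22a5* (chromosome 11, 53864542 to 53891660, reverse strand), the high-affinity carnitine transporter Octn2, had 1055 normalized reads in control against 1413 in iFIRKO. Its log2FC was 0.42 (interval 0.26 to 0.59). The values of its array neighbours lay below 0, and the difference between the genes was not tested. *Slc22a21*, which encodes the carnitine transporter Octn3, had 110 and 91.8 normalized reads, a log2FC of -0.25 (interval -0.84 to 0.35), and *Slc22a4*, the ergothioneine transporter Octn1, had 104 and 99.1, a log2FC of -0.07 (interval -0.68 to 0.49). Both intervals span 0. *Slc22a5* and *Slc22a21* share 537 of their 75-base words, 17.1% and 14.2% of each, so part of their reads could be assigned to either. *Slc22a15*, a zwitterion transporter on chromosome 3, had 471 and 598, a log2FC of 0.34 (interval 0.09 to 0.60).

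Of the 8 organic anion transporters outside the array, *Slc22a7* (chromosome 17, 46432183 to 46438457), the hepatic transporter Oat2, was the only one at the minimum. It had 800 normalized reads in control against 1029 in iFIRKO, a log2FC of 0.36 (interval 0.17 to 0.55). The divergent members *Slc22a18*, an imprinted gene of chromosome 7, and *Slc22a23*, whose substrate is not established, were both within the 1.5-fold limit. *Slc22a18* had 3256 and 3373 normalized reads, a log2FC of 0.05 (interval -0.05 to 0.15), which spans 0, and *Slc22a23* had 3478 and 2947, a log2FC of -0.24 (interval -0.34 to -0.14). The Slc22 members described here together had 19830 normalized reads in control against 17602 in iFIRKO, a log2 ratio of -0.17 (interval -0.21 to -0.13).

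Upstream windows were found in the RefSeq table for 35 of the 40 members and 16 of the 20 tested ones. More than 1 window was listed for 4 members, and the first was used. GTTAAC was present on either strand in 3 of the 16 (*Slc22a28*, *Slc22a29* and *Slc22a30*), against 3.06% of 27025 genes. GTTAAT was present in 2 (*Slc22a29* and *Slco1b2*), against 7.20%, and in *Slco1b2* it began 66 bases before the start. TTCNNNGAA, the element bound by STAT5, was present in 3 (*Slc22a15*, *Slc22a26* and *Slco1b2*), against 8.47%. AGGTCA, the core letters of nuclear receptor sites, was present in 3 (*Slc22a27*, *Slco1a1* and *Slco1b2*), against 16.0%. TGTTTAC, a forkhead element, was present in 0 of the 16, against 3.55%. All strings were searched on both strands of the 300 bases, and GTTAAC and GTTAAT differ only in their last letter. The G and C content of the windows ran from 27.7% in *Slc22a30* to 77.3% in *Slc22a23*.

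Transporters outside the families, some of them with other substrates, were read from lists written with earlier results known. Of 15 uptake and facilitative transporters outside the families, 12 were tested and 0 were called in either direction, with a median log2FC of 0.03. *Slc10a1*, the sodium-dependent bile acid transporter, had 17506 and 24353 normalized reads, a log2FC of 0.48, against -0.18 for *Slco1b2*. *Slc2a2*, the hepatocyte glucose transporter, had a log2FC of 0.58, just inside the limit, and *Slc29a1*, a nucleoside transporter, of -0.21. Of 11 efflux pumps of the ABC family, 1 was called higher and 1 lower, with a median of -0.14. Over all genes tested, 4.46% were called higher and 7.29% lower, so single calls in lists this small are no result about the lists. *Abcg2*, which exports urate and drugs, was at 2544 and 3978 normalized reads, a log2FC of 0.64, and *Abcg8*, a subunit of the sterol exporter, at 1418 and 709, a log2FC of -0.996. The abundant pumps *Abcb11*, the bile salt export pump, *Abcc2* and *Abcc3* had log2FCs of -0.42, 0.04 and -0.25.

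The carnitine list, read beside *Slc22a5*, had 8 of 9 symbols in the files, 0 called and a median log2FC of 0.31. *Crot*, *Cpt1a* and *Shmt1*, the 3 with the highest mean level, had log2FCs of 0.16, 0.33 and -0.07. Of 14 transcription factors known to act on transporter genes, 1 was called lower, against 7.29% of all genes tested. That gene was *Cux2*, a female-predominant repressor in mouse liver. It had 839 normalized reads in control against 485 in iFIRKO, a log2FC of -0.78 (interval -1.02 to -0.56). *Hnf4a*, *Cebpa* and *Nr1h4*, the most abundant, had log2FCs of -0.04, -0.07 and 0.19, and the median of the list was -0.02. Of 6 genes of urate and thyroid hormone handling, 1 was called higher, against 4.46% of all genes tested. That gene was *Serpina7*, thyroxine-binding globulin, at 0.92, and *Ttr*, *Uox* and *Xdh* had 0.29, 0.22 and -0.04.

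Cell type markers also differed between the libraries, and their part in the values of the members was not tested beyond what is given here. The summed level of 6 hepatocyte markers was 4833182 normalized reads in control against 4562631 in iFIRKO, a log2 ratio of -0.08. *Alb*, with 4167154 and 3944155, made up most of this sum. The log2FCs of the 6 ran from -0.94 in *Apoa1*, the only 1 called lower, to 0.50 in *Fabp1*. The log2 ratio of the summed level was -0.64 for 6 Kupffer cell markers, -0.21 for 5 cholangiocyte markers and 0.11 for 6 stellate cell markers. It was 1.01 for 5 erythroid markers and -1.67 for 8 lymphocyte and neutrophil markers, of which 4 were tested. Called lower were 4 Kupffer cell markers and the 4 tested lymphocyte and neutrophil markers, against 7.29% of all genes tested. The 5 erythroid markers were called higher, against 4.46%. No cholangiocyte or stellate cell marker was called. Of 5 adipocyte markers, *Lep* and *Retn* were listed at 0 in both libraries, *Adipoq* and *Plin1* at 0 in control with 2.01 in iFIRKO, and *Fabp4*, which other cells also express, had 470 and 469.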

How the data were processed

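Total RNA of the liver was made into TruSeq stranded mRNA libraries and sequenced on an Illumina NovaSeq, 1 library for each genotype. The authors deposited log2-transformed normalized read counts by gene symbol, in which values of 1 or less appear as 0. The submitters' processing notes name the build mm10, while the aligner, the counter, the annotation and the scaling method are not given in the sources used here, nor is the use of strand in counting. Values were returned to the linear scale, and the first of rows that share a symbol was kept (53342 rows). The commonest low value, 1.99 in control and 2.01 in iFIRKO, was taken as 1 read pair of 2 reads. Of values up to 20 pairs, 42.5% in each library were whole pairs within 0.001 pair, so depths and read pairs are estimates. The Clopper-Pearson intervals treat values rounded to whole pairs as counts, and no other count model was used. The members and all lists were chosen with earlier results of these data known.

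Every member at the minimum is named with its values, except 1 that is not reported here though it is counted in the totals, and of each list the members past the fold and up to 3 others by level. For cell types the summed level is given. Positions and exon lengths are from GENCODE M21, upstream windows from RefSeq. Windows were compared by local alignment (match 1, mismatch -1, gap opening -5, gap extension -1). Alternatives were other pseudocounts, minimums, scalings and folds, summed duplicate symbols, -ps symbols and summed arrays. Biopython 1.88, scipy 1.17.1, pandas 2.3.3, matplotlib 3.10.9 and numpy 2.4.6 were run under Python 3.11.15. Sequencing of serum extracellular vesicle miRNA was not analysed here.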

Additional observations from a re-analysis of the deposited data

How the results depend on the processing

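The number of members called higher, 1 in the report, was 3 without an expression minimum, which adds *Slc22a13* and *Slc22a22* at 3 read pairs or fewer, and 0 with a minimum CPM of 5 or a fold above 2, where *Slc22a29* is not reached. The number called lower, 3, was 1 with a fold above 2 (*Slc22a26*) and 2 with a pseudocount of a CPM of 1, and it was 3 under the other settings. Over all genes, 597 higher and 976 lower became 371 and 576 with a pseudocount of a CPM of 1, 1956 and 2617 without a minimum, 288 and 440 with a minimum CPM of 5, and 209 and 267 with a fold above 2. The median log2 fold change of the members lay between 0.0798 and 0.1489. With an array's reads summed in place of single copies, the value was -0.44 for the chromosome 19 array, the opposite sign to *Slc22a27*, *Slc22a28* and *Slc22a29*. It was -0.17 for the chromosome 6 array, the opposite sign to *Slco1a1*, and 0.34 for the chromosome 11 array, the opposite sign to *Slc22a21* and *Slc22a4*. No such sum passed the 1.5-fold limit, though *Slc22a26* and *Slco1a4* were called lower. Of 13 such values, 6 stayed within the counting interval of their gene and the rest lay outside it. Median-ratio, TMM and reduced-total scaling moved log2 values by -0.0047, 0.0026 and -0.0122. All 176 single values under settings other than the summed arrays stayed within the counting interval of their gene, with 0 changes of sign. Much of this was fixed in advance. Other minimums and summed duplicate symbols left each member's value as it was, and the scalings shifted all members alike. Only a larger pseudocount, or a ratio without one, could move members by different amounts. With a minimum CPM of 5, *Slc22a4*, *Slc22a21*, *Slc22a29* and *Slco3a1* have no value. No paired analysis was possible because the 2 genotypes have 1 library apiece, and no library could be left out. Members near the minimum have the widest intervals.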
